A study of Homo sapiens with 6 samples.

Results

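The 10 genes described here encode the death-promoting arm of the BCL2 family: the pore-forming effectors BAX and BAK1 and the BH3-only genes BID, BAD, BIK, BBC3 (PUMA), PMAIP1 (NOXA), BCL2L11 (BIM), BMF and HRK. The list was drawn up by gene name, with earlier results of these data known, and all 10 were found among the 18417 genes with a probe set of their own, each with 1 probe set. Their mRNA was measured in the human line MDA-MB-231, established from a breast cancer of the triple negative type, on Affymetrix Human Gene ST arrays. EC-70124, a multi-kinase inhibitor, was given to 3 samples at 500 nM for 24 h, and 3 samples were left untreated. All 6 share the line, the medium and the plating density, and no vehicle is named for the untreated cells. The paper's methods call the samples independent, without saying whether they were separate cultures on separate days.

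Proteins of the BCL2 family decide whether the outer mitochondrial membrane is opened during apoptosis. BAX and BAK1 form the pore, the anti-apoptotic members such as BCL2L1 (BCL-XL) and MCL1 hold them in check, and BH3-only proteins sense stress and either neutralize the anti-apoptotic members or engage BAX and BAK1 directly. Many BH3-only genes are controlled by transcription, whereas BID and BAD are controlled mainly by cleavage and phosphorylation of the protein, which an mRNA array does not measure.

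The array values are intensities on a linear scale, normalized by the authors, with medians over all probe sets of 451 to 460 in the treated arrays and 437 to 444 in the untreated arrays. Pearson's r of the log2 values over all probe sets (features, not replicates) was 0.990 to 0.993 within a group and 0.979 to 0.984 between groups. The label of the line was checked with marker genes. VIM, a mesenchymal filament gene, averaged 13148 treated and 13827 untreated. ESR1 averaged 208 treated and 225 untreated, PGR 158 and 166, and the leukocyte gene PTPRC 96.5 and 95.1. Of 6 genes known in this line 4 were lower (CD44, EGFR, AXL and MSN), with a summed intensity of 48679 to 50280 treated and 59477 to 60441 untreated. Of 3 epithelial genes 2 were higher (CDH1 and KRT8), with sums of 7518 to 8229 treated and 6723 to 7145 untreated. CDH1 averaged 178 treated and 156 untreated (limma, adjusted p = 0.049). It was among the 30% dimmest genes and near the level of ESR1 and PGR. The 3 epithelial genes were listed as low in a mesenchymal-like line. KRT8 made up most of the sums and went against that, with 7274 treated and 6350 untreated, at percentile 97 of all genes by mean. Its adjusted p was 0.0405 from limma, and the calls of the marker genes were not recomputed under other settings. None of ESR1, PGR and ERBB2 passed, with sums of 1817 to 1960 treated and 1835 to 1937 untreated, and neither did the 2 leukocyte genes measured, with sums of 254 to 312 treated and 306 to 308 untreated. ERBB2, whose protein is not overexpressed in this line, was at 1515 treated and 1486 untreated. The part of these marker changes in the results was not tested. No measure of background is given, so that a low intensity cannot be separated from absence. Since RNA came from whole cultures, a lower level per cell and a smaller share of expressing cells cannot be told apart.

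At an adjusted p under 0.05 from limma, 2 of the 10 genes were up-regulated (PMAIP1 and BAX), 1 was down-regulated (BID) and 7 did not pass. Over all 18417 genes 19.7% were called higher and 14.8% were called lower. The share of called genes among the 10 was thus close to that of the array. Quantile normalization moved the median log2 fold change of all genes to -0.05. With it the calls over all genes turned from 3631 higher and 2722 lower to 3112 higher and 3527 lower. The same 2 and 1 of the 10 genes were called. The ranges of treated and untreated arrays did not overlap for 4 of the 10 genes, against 47.6% of all genes. The median log2 fold change over the 10 genes was 0.06, beside 0.00 over all genes. An exact permutation test of 3 against 3 arrays cannot give a p below 0.1, and it gave 0.1 for PMAIP1, BAX, BID and BAD.

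**Figure D1:**
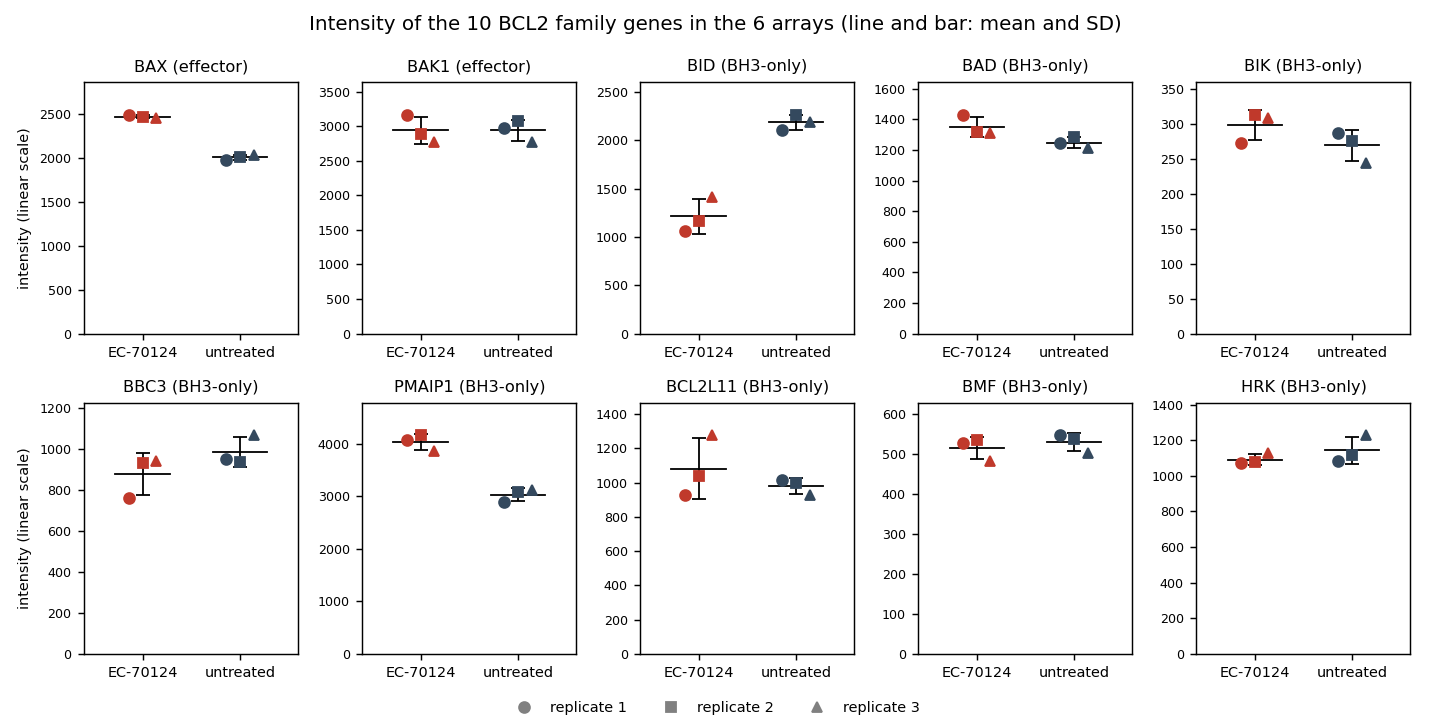
Intensity (y axis, linear scale from 0) of the 10 genes in 3 EC-70124 arrays (left, red) and 3 untreated arrays (right, dark blue), with 1 symbol per replicate and the mean and SD in black. BID lies between 1064.5 and 1418 in the treated arrays, below all untreated arrays, whereas BAX and PMAIP1 lie above all untreated arrays.

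**Figure D2:**
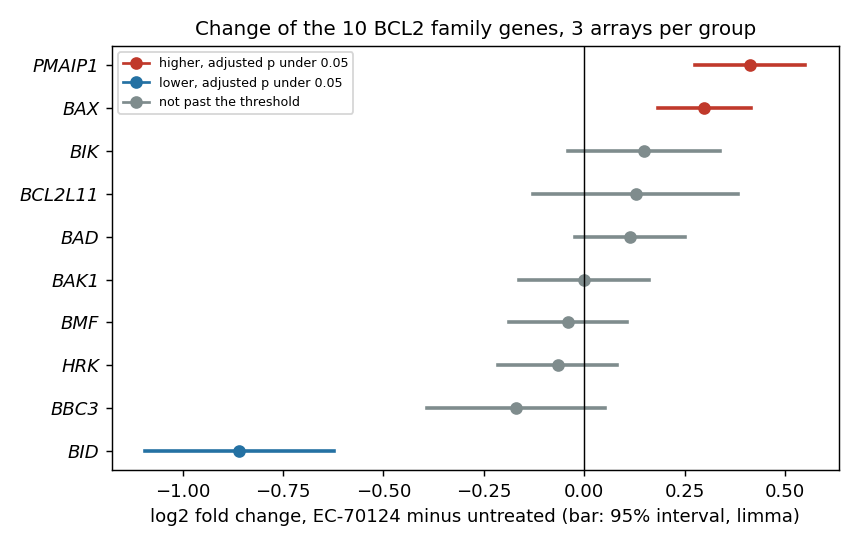
Log2 fold change (EC-70124 minus untreated, x axis) of each gene (y axis) with its 95% interval from limma over 3 arrays per group, red for up-regulated, blue for down-regulated and gray for genes that did not pass. The intervals of the 7 gray genes all include 0 and reach no further than -0.39 and 0.38.

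Of the effectors, BAX, which is recruited from the cytosol to mitochondria, was up-regulated. Its intensity was 2486, 2459 and 2457 in treated replicates 1, 2 and 3, against 1977, 2010.2 and 2028 in the untreated ones, with means of 2467 ± 16.3 and 2005 ± 25.9 (SD, n = 3 each). The 2 sets of arrays were well apart, and each treated array was 1.21 to 1.26 times each untreated array. The log2 fold change was 0.30 (standard error 0.05, adjusted p = 0.00207 from limma), a 1.23-fold rise. The 250 bases before the transcript start of BAX (RefSeq, GRCh38.p14, chr19:48954625-48954874, plus strand) are shown because it is 1 of the 3 genes that changed. Capitals mark CACGTG, the E-box bound by MYC and related factors, and TGACG, a half-site of ATF and CREB factors, searched on both strands.
BAX: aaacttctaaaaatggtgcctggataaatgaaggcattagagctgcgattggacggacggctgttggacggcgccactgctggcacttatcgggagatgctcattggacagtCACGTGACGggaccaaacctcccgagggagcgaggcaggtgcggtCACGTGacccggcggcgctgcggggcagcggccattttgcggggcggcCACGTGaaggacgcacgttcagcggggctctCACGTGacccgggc

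The BAX window held CACGTG 4 times, at 138, 93, 45 and 14 bases before the start, and the copy at 138 overlaps the TGACG match at 134. Of all 35116 such windows in the RefSeq table, 6.34% held CACGTG and 21.2% held TGACG. These matches describe letters in the window and were not tested as sites.

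BAK1, the effector that resides in the mitochondrial membrane, had intensities of 3160, 2886 and 2775 in treated cells and 2967, 3081 and 2777 in untreated cells. The groups overlapped, and the difference between them was well inside the spread of either. Its log2 fold change was -0.0014, with a 95% interval of -0.16 to 0.16 (limma, adjusted p = 0.991). Of the 2 effectors only BAX passed the test, and the difference between the 2 changes was not tested.

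Among the BH3-only genes, PMAIP1, whose product NOXA binds mainly MCL1, had the largest rise of the 10 genes. Its intensity was 4080, 4164 and 3867 in treated replicates 1, 2 and 3, against 2884, 3082 and 3130 in the untreated ones. The means were 4037 ± 153 treated and 3032 ± 130 untreated (SD, n = 3 each). All treated arrays lay above all untreated arrays, by 1.24 to 1.44 times over the 9 pairs. The log2 fold change was 0.41 (standard error 0.06, adjusted p = 0.000986 from limma), a 1.33-fold rise. The 3 genes with the most similar profile over the 6 arrays were GCC2, IQCC and ZNF131. Their root mean square differences of mean-centred log2 values were 0.014, 0.021 and 0.022. Their log2 fold changes were 0.39, 0.41 and 0.43, and like changes follow from picking the nearest of all genes. The 250 bases before the start of PMAIP1 (GRCh38.p14, chr18:59899746-59899995, plus strand) hold 1 TGACG match on the minus strand, in capitals, 55 bases before the start, and none of the other letters searched.
PMAIP1: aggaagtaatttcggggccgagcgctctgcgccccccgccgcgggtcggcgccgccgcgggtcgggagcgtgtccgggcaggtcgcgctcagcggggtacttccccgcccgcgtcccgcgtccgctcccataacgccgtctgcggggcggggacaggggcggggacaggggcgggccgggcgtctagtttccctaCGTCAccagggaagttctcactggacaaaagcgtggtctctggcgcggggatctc

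BID links death receptors to mitochondria once caspase-8 has cut the protein. It was the 1 gene of the 10 that was down-regulated and had the largest change among them. Its intensity was 1064.5, 1161 and 1418 in treated replicates 1, 2 and 3, against 2106, 2262 and 2194.5 in the untreated ones. The means were 1215 ± 183 treated and 2187 ± 78.2 untreated (SD, n = 3 each). Treated replicate 3 was the highest of the treated arrays and still below every untreated array. Over the 9 pairs, treated cells held 0.471 to 0.674 times the untreated intensity. The log2 fold change was -0.86 (standard error 0.10, 95% interval -1.09 to -0.62, adjusted p = 0.00036 from limma), 1.81-fold lower in treated cells. Its absolute size was at or above that of 95.9% of all genes. Without treated replicate 3 the log2 fold change was -0.98, and without treated replicate 1 it was -0.77, and both passed. The genes closest to BID in profile were FASN, the fatty acid synthase, NT5DC2 and SCARB1, the receptor for high-density lipoprotein. Their root mean square differences were 0.039, 0.048 and 0.050, with log2 fold changes of -0.88, -0.79 and -0.78. They were picked as the nearest of all genes, so that like changes follow from the choice, and a shared function was not tested.

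The RefSeq table gives BID 5 transcript starts, and the 1 value per gene of the array does not separate them. The outermost window (GRCh38.p14, chr22:17774666-17774915, minus strand) is shown as the sequence before all of these starts, and it held none of the letters searched.
BID: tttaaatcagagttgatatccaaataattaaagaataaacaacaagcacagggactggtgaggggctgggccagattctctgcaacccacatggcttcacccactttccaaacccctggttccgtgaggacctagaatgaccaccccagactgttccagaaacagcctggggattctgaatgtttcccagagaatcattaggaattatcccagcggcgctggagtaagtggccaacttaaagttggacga

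In 2 of the 5 windows of BID, CACGTG was found, at 106 bases before one start and 47 bases before the other, and since these windows overlap this is 1 copy. Over the 9 genes with a window in the table, 3 held CACGTG in at least 1 window (BAX, BID and BBC3) and 5 held TGACG (BAX, BAD, PMAIP1, BMF and HRK). Counted in the same way, 7.73% of the 27305 genes in the table held CACGTG and 24.9% held TGACG. The 9 genes have 15 windows, against 35116 windows for all 27305 genes, and more windows give more places for a match. Both sets of letters were added to the search after the first results, and the difference in shares was not tested.

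The other 6 BH3-only genes did not pass the test. BCL2L11 encodes BIM, which binds all anti-apoptotic members, and had intensities of 930, 1036 and 1277 in treated replicates 1, 2 and 3, against 1014, 1000.4 and 929 in untreated cells. The treated arrays were spread over 0.458 on the log2 scale, the widest of the 10 genes, and overlapped the untreated arrays. The log2 fold change was 0.13 (standard error 0.11, adjusted p = 0.431 from limma). It was 0.0016 without treated replicate 3 and 0.23 without treated replicate 1 (limma, adjusted p = 0.13), so that its size moved with single arrays. BBC3, encoding PUMA, which binds all anti-apoptotic members, had 760.5, 933 and 939.5 in treated cells, against 952, 934 and 1067 in untreated cells. Treated replicate 1 was the lowest of the 6 arrays, and treated replicate 3 lay inside the untreated range. Its log2 fold change of -0.17 (limma, adjusted p = 0.224) was -0.07 without treated replicate 1.

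BAD, which binds BCL2 and BCL2L1 when it is not phosphorylated, had 1429, 1317.5 and 1310.2 in treated cells, against 1247, 1284 and 1214 in untreated cells. The groups did not overlap, but the nearest arrays differed by 1.02 times, and the log2 fold change of 0.11 did not pass (95% interval -0.02 to 0.25, adjusted p = 0.184 from limma). BIK, a member of the endoplasmic reticulum, was the only one of the 10 among the 30% dimmest genes, with 273, 312 and 309 treated and 287, 276 and 245 untreated. Its log2 fold change was 0.15 (limma, adjusted p = 0.214). BMF, which is tethered to the actin motor until cells detach, had 526, 534 and 483 treated and 546, 537 and 503 untreated. HRK, known mainly from neurons, had 1072, 1076.5 and 1126 treated and 1086, 1117 and 1228 untreated. Both overlapped between groups, with log2 fold changes of -0.04 for BMF and -0.07 for HRK and adjusted p of 0.679 and 0.488 from limma. For the 7 genes that did not pass, changes above 1.31-fold in either direction lay outside every 95% interval.

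The partners of these genes were described from lists of textbook roles. The counts in this and the following lists stand beside 19.7% of all genes called higher and 14.8% called lower. No list was tested as a set. Of 5 anti-apoptotic genes measured, 2 were down-regulated and 0 were up-regulated by limma (0 higher also at an unadjusted p under 0.05), with a median log2 fold change of -0.16. BCL2A1 (BFL-1), which binds BID and BIM among others, had 422, 394 and 380.3 in treated cells, against 797, 782 and 766 in untreated cells. BCL2L1, which encodes BCL-XL, had 3745, 4376 and 4199 in treated cells, against 5712, 5625 and 5819 in untreated cells. Neither gene overlapped between groups, with log2 fold changes of -0.97 (limma, adjusted p = 1.57e-05) and -0.48 (limma, adjusted p = 0.000962). MCL1, the main partner of NOXA, averaged 9248 ± 257 treated and 8814 ± 419 untreated (SD, n = 3 each), a log2 fold change of 0.07 (limma, adjusted p = 0.417). BCL2L10 had a log2 fold change of 0.02, and BCL2 of -0.16 (limma, adjusted p = 0.181), which passed without treated replicate 3 (-0.25, adjusted p = 0.015 from limma). BCL2L2 was not analysed here. The value of a gene is 1 number per array, and the long and short transcripts of BCL2L1 and MCL1 are not separated.

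Upstream of BID, the death receptor arm had 1 of 9 measured genes up-regulated and 2 down-regulated, with a median log2 fold change of -0.14. CASP8, the protease that cuts BID, had 2892.5, 2944 and 2766 in treated cells, against 2250, 2375 and 2257 in untreated cells, and its log2 fold change was 0.32 (limma, adjusted p = 0.00252). Thus the mRNA of the protease was higher and that of its substrate was lower in all 3 treated arrays. TNFRSF1A, the type I receptor of TNF, had a log2 fold change of -0.36 (limma, adjusted p = 0.00299), and TNFRSF10B, a TRAIL receptor, of -0.21 (limma, adjusted p = 0.0255). The call of TNFRSF10B was lost without treated replicate 2 (0.0592) and without untreated replicate 1 (0.0577), 2 (0.0831) or 3 (0.0704). Without any 1 untreated array, 1 of the 9 genes was called lower. CFLAR, the inhibitor of caspase-8 activation, had a log2 fold change of -0.0009. Of 13 measured genes of mitochondrial release, the apoptosome and caspases, 1 was up-regulated and 2 were down-regulated, with a median of 0.01. CASP2 had a log2 fold change of 0.36 (limma, adjusted p = 0.00855). APAF1, the scaffold of the apoptosome, had -0.27 (limma, adjusted p = 0.0269) and lost the call without untreated replicate 1 (0.0845), 2 (0.0687) or 3 (0.0683). VDAC1, a channel of the outer membrane, had -0.21 (limma, adjusted p = 0.0195) and lost it without treated replicate 1 (0.0696) or 2 (0.0595) or untreated replicate 1 (0.06) or 3 (0.0666). Without untreated replicate 1 or 3, 0 of the 13 genes were called lower, and without treated replicate 3, 2 were called higher.

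Factors known to act on BH3-only promoters included the largest changes of these lists. Of 13 measured, 5 were up-regulated and 1 was down-regulated, with a median log2 fold change of 0.15, and 2 were called lower after quantile normalization or cyclic loess. DDIT3 encodes CHOP, a stress-induced factor with BCL2L11 and BBC3 among its reported targets, and had 5226, 4741 and 4827 in treated cells, against 1020, 1193 and 942 in untreated replicates 1, 2 and 3. This is a log2 fold change of 2.24 (limma, adjusted p = 4.05e-06). ATF3, a partner in the same stress response, had 1524, 1595 and 1514 treated, against 377, 365 and 326 untreated, a log2 fold change of 2.12 (limma, adjusted p = 2.55e-06). CEBPB had 0.63 (limma, adjusted p = 0.000274) and ATF4 0.45 (limma, adjusted p = 0.000411). With the median over its probe sets, ATF4 had 0.09 (limma, adjusted p = 0.344). In the same arrays BCL2L11 and BBC3 did not pass, as given above, and only PMAIP1 among the BH3-only genes was up-regulated. TP73 was the factor called lower, and FOXO1 and FOXO3, forkhead factors that can induce BCL2L11, did not pass, with -0.03 (limma, adjusted p = 0.798) and 0.24 (limma, adjusted p = 0.366).

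The promoter windows were searched for letters known for some of these factors, on both strands. TGATGNAA, a composite site of ATF4 and CEBP factors, was found in 1 of the 9 genes, HRK, and in 3.89% of all genes in the table, and TGTTTAC, a forkhead site, was found in 1 of the 9 genes, BCL2L11, and in 3.66% of all genes. HRK and BCL2L11 did not pass the limma test, and the matches were not tested as sites. Both stretches are shown, with the match in capitals, as the only ones found for these letters in the 9 genes. That of HRK (GRCh38.p14, chr12:116881493-116881532, minus strand) starts its match 75 bases before the transcript start, and that of BCL2L11 (chr2:111120675-111120713, plus strand) 223 bases before it, read on the minus strand.
HRK: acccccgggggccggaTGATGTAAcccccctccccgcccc
BCL2L11: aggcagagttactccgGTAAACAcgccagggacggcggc

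Of 11 measured kinases that phosphorylate BAD or BIM, 3 were down-regulated and 1 was up-regulated, with a median log2 fold change of -0.14. PIM1, which phosphorylates BAD, had 1144, 1290.4 and 977 in treated cells, against 2239, 2401 and 2322 in untreated cells. The groups were far apart, with a log2 fold change of -1.04 (limma, adjusted p = 0.000113). PIM2 had -0.28 (limma, adjusted p = 0.0343) and lost the call without treated replicate 1 (0.101) or 3 (0.085) or untreated replicate 1 (0.104) or 2 (0.116). RPS6KA1 had -0.21 (limma, adjusted p = 0.0153) and lost it without treated replicate 1 (0.0539) or untreated replicate 2 (0.0549). MAPK8, the stress kinase JNK1, had 0.18 (limma, adjusted p = 0.0349) and lost the call without any 1 of the 6 arrays (0.052 to 0.109), after quantile normalization (0.0782), after cyclic loess (0.075) and with the replicate block (0.0693). Without treated replicate 1 or untreated replicate 2, 1 of the 11 was called lower.

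**Figure D3:**
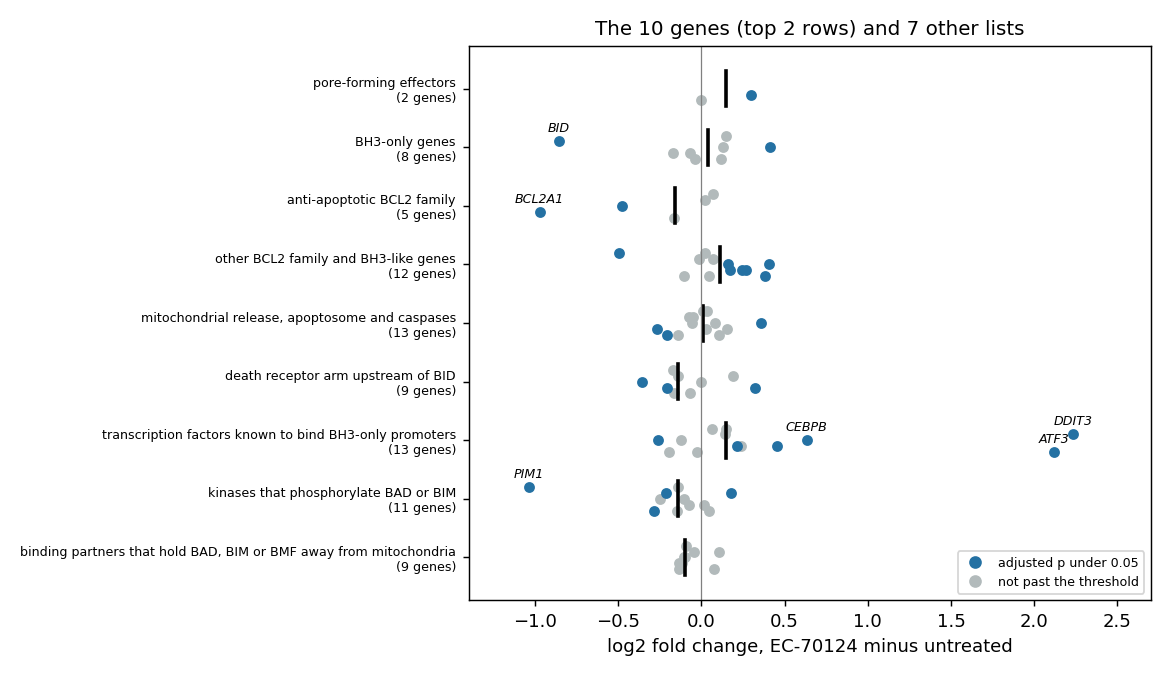
Log2 fold change (x axis, EC-70124 minus untreated, with 3 arrays in each group) of the 10 genes (top 2 rows) and of 7 other lists of the pathway (y axis, with the measured genes counted under each name). Points stand for genes, in blue where the adjusted p from limma was under 0.05 and in gray where it was not, and black bars mark medians, which run from -0.16 for the anti-apoptotic genes to 0.15 for the effectors and the transcription factors.

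The changes of the 10 genes were recomputed under 15 alternatives (14 for BIK). BID kept its call in each, with log2 fold changes of -0.98 to -0.77 and adjusted p of 5.8e-05 to 0.00277 from limma. BAX, at 0.23 to 0.31, and PMAIP1, at 0.37 to 0.44, passed in all but the one that also asked for a fold of 1.5. None of the 7 other genes passed in any alternative.

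**Figure D4:**
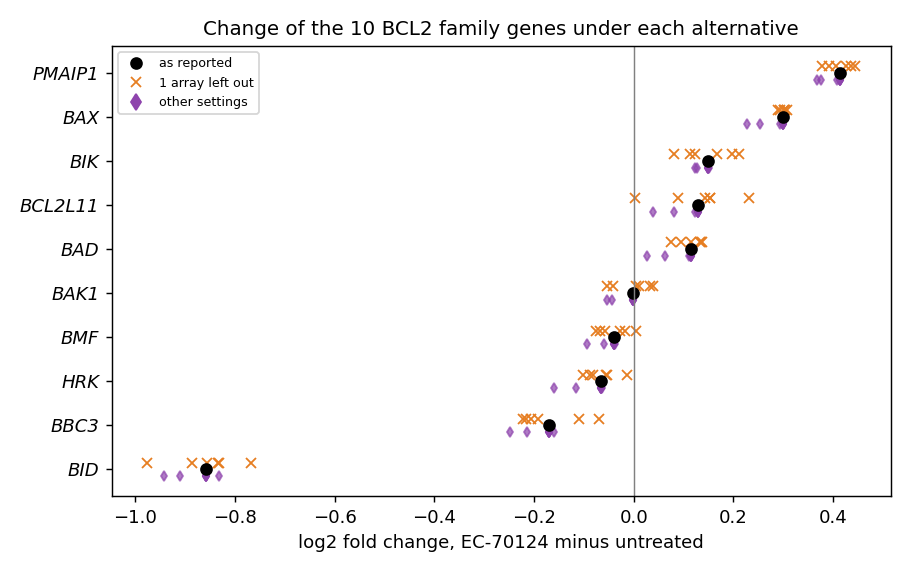
Log2 fold change (EC-70124 minus untreated, x axis) of each of the 10 genes (y axis) as reported (black), with 1 array left out (orange crosses) and under the other settings (purple diamonds). BID stays at or below -0.77, BAX and PMAIP1 stay at or above 0.23, and BAK1 and BMF lie on both sides of 0.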

How the data were processed

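mRNA of MDA-MB-231 cells was measured on 6 arrays, 3 with EC-70124 and 3 untreated, mapped from the sample titles. The titles call the untreated samples control and give no time for them, and the word untreated is from the paper. The authors used dChip, normalized the arrays on rank invariant probes compared in pairs, and deposited 1 model-based intensity per probe set on a linear scale. The dChip version is not given in the sources used here. Values under 1 were raised to 1 before log2, and that normalization was kept.

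Of 33252 probe sets, 19460 carry 1 gene symbol in the platform annotation, 1754 several and 12038 none. Each of 18417 genes was represented by its probe set with the highest mean. Groups were compared by limma 3.58.1 (lmFit, eBayes; R 4.3.3), 2-sided, with Benjamini-Hochberg adjustment over all genes and a threshold of 0.05. The scripts were tested on simulated data. Standard errors of log2 fold changes had a median of 0.07, and the number of arrays limits the precision. P-values measure the spread between these samples, which may be in part technical.

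The genes and lists were chosen with earlier results of these data known. The text names all 10 genes, all anti-apoptotic genes measured, DDIT3, and from each other list up to 4 called genes, taken by size of change, or the gene of lowest p where none was called, and for the largest rise and fall the 3 genes of nearest profile. CFLAR, TP73, FOXO1 and FOXO3 were named after their values were seen. The letters CACGTG and TGACG were added to the search after the first results. Promoter windows are from RefSeq, and 9 of the 10 genes matched. Some genes of the other lists are not reported here, and the BH3 motif of the proteins was not analysed here. Protein and flow cytometry data were not analysed here.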

Additional observations from a re-analysis of the deposited data

How the results depend on the processing

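Alternatives were cyclic loess, quantile normalization, a filter on the 30% dimmest genes (which removed BIK), an offset of 50, the median of probe sets per gene, a test of all probe sets, robust settings with an intensity trend, a fold of at least 1.5, the replicate number as a block and leaving out each array. The fold of at least 1.5 left 0 of the 10 genes higher and 1 lower, and 1184 genes higher and 596 lower over all genes. BAX (0.30) and PMAIP1 (0.41) thus lost their calls. Under it 1 anti-apoptotic gene and 1 kinase stayed lower and 3 transcription factors stayed higher (0 were lower, and 0 kinases higher), and 0 genes were called in the lists of other BCL2 relatives, mitochondrial release and caspases, and the death receptor arm. No other alternative moved the counts for the 10 genes or for all genes by over 1.5 times. Same-numbered samples shared only a number, with correlations of deviations of 0.13, -0.02 and 0.14 for numbers 1, 2 and 3, and not every sample correlated best with its own number. With the replicate block, 2 of the 10 genes were higher and 1 was lower, with 3521 genes higher and 2662 lower over all genes. Among the other genes recomputed one by one, the block changed the call of MAPK8 alone. CFLAR, TP73, FOXO1, FOXO3, the marker genes and the genes of nearest profile were not recomputed one by one. With the block, 0 kinases were higher (1 as reported) and 4 of the other BCL2 relatives were higher (6 as reported). Of the other BCL2 relatives 6 were higher as reported, 2 after quantile normalization and 3 after cyclic loess. Under either of these the death receptor arm had 4 genes lower (2 as reported), the transcription factors 2 lower (1 as reported) and the kinases 0 higher, and after quantile normalization 5 kinases were lower (3 as reported). Without the dimmest genes, with the offset of 50 or with the intensity trend, 2 transcription factors were lower and 2 genes of mitochondrial release and caspases were higher (1 as reported). In the death receptor arm 2 genes were higher with the median of probe sets or the intensity trend (1 as reported), and with the trend 1 binding partner was higher and 3 were lower (0 as reported). Leaving out each array gave 2 to 3 anti-apoptotic genes lower, 2 to 5 other relatives higher, 1 to 2 mitochondrial and caspase genes higher and 0 to 2 lower, 1 to 3 death receptor genes lower, 4 to 6 transcription factors higher, 0 kinases higher and 1 to 4 lower, and 0 to 2 binding partners lower. The table has no background measure, so calls of dim probe sets could not be set against one.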

Other observations

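Further relatives of the family were measured outside the comparisons above. Of 12 genes with a BCL2-like fold, a BH3-like motif or binding to the family, 6 were up-regulated and 1 was down-regulated. Their median log2 fold change was 0.11. Over all genes 19.7% were called higher and 14.8% lower, and the list was not tested as a set. BCL2L13, a mitophagy receptor, had 2228, 2229 and 2190 in treated cells, against 1670, 1710 and 1638 in untreated replicates 1, 2 and 3, a log2 fold change of 0.41 (limma, adjusted p = 0.00048). BECN1, the autophagy gene with a BH3 domain, had 0.38 (limma, adjusted p = 0.00284) and BNIP1 had 0.27 (limma, adjusted p = 0.0283). BNIP3L, also a mitophagy receptor, was the gene that was lower, with 6058, 6299 and 5062 in treated cells, against 8079, 8458 and 7950 in untreated cells (log2 fold change -0.50, adjusted p = 0.00263 from limma). BNIP1 lost its call after quantile normalization (0.0894) and without treated replicate 1 (0.0811) or 2 (0.0706) or untreated replicate 1 (0.0644), 2 (0.0599) or 3 (0.0935), and 2 of the 12 genes were called higher without any 1 of the same 5 arrays.

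Of 9 genes that hold BAD, BIM or BMF away from mitochondria (14-3-3 proteins and dynein light chains), 0 passed the limma test and 0 had an unadjusted p under 0.05, with a median log2 fold change of -0.10. The lowest p was that of YWHAG, a 14-3-3 gene, with -0.13 (limma, adjusted p = 0.122). With an intensity trend and robust settings, 1 of the 9 was called higher and 3 were called lower, YWHAG among them (0.0312), and without treated replicate 3, 2 were called lower.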
